A study of Homo sapiens with 4 samples.

Results

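Cancer-testis and germline genes were followed in MEG-01, a line of human megakaryoblasts from which platelet-like particles bud, by RNA sequencing of 2 wild-type (WT) and 2 OGT-depleted libraries. The members are the protein-coding genes in the authors' table of changed genes whose symbols begin with MAGE, GAGE, PAGE, XAGE, SSX or CT45, together with YBX2 and IZUMO1. There were 6 of them among 426 listed genes, of which 394 were protein-coding, namely MAGEC1, MAGEC2, MAGEA1, MAGED1, YBX2 and IZUMO1. The listed genes are the 3.24% of about 13154 tested genes that the authors called at an adjusted p under 0.05. GENCODE 29 names 77 protein-coding genes with the symbol prefixes. Of its 35 MAGE genes 4 were listed, and of its GAGE, PAGE, XAGE, SSX and CT45 genes 0 were listed; the levels of the genes outside the table were not analysed here.

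In the OGT-depleted cells a single lentiviral vector had delivered SpCas9 and a guide RNA against OGT, the transferase that puts single O-linked N-acetylglucosamine sugars on nuclear and cytosolic proteins. Both groups were otherwise the same line in the same medium. No vector is given for the WT cells, so the vector and the loss of OGT cannot be told apart. Whether the depleted cells were a clone or a pool, and whether the replicates were separate cultures, is not stated in the labels. The spread between libraries may therefore be technical only.

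Cancer-testis genes are active in male germ cells, are silent in most adult tissues and are switched on again in many tumours, where the peptides they encode can be seen by T cells. In somatic cells many of them are held silent by DNA methylation at their promoters. The MAGE proteins share a homology domain that binds RING-type ubiquitin ligases. MAGEA1, MAGEC1 and MAGEC2 are X-linked genes of the germline-restricted kind, while MAGED1 belongs to the MAGE genes that are expressed in many tissues and is grouped here by its name. YBX2 encodes a germ-cell Y-box protein that binds and stores messenger RNA in spermatids and oocytes, and IZUMO1 encodes the sperm surface protein that binds its receptor on the egg.

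The members came from sites on X and on a pair of autosomes. In hg19 coordinates MAGEC1 (ENSG00000155495) lies on chromosome X from 140991680 to 140997174, and MAGEC2 (ENSG00000046774) lies 293 kb further along, from 141290131 to 141293076. MAGEA1 (ENSG00000198681) lies on X from 152481522 to 152486115, and MAGED1 (ENSG00000179222) from 51546103 to 51645453. YBX2 (ENSG00000006047) lies on chromosome 17 from 7191571 to 7197934, and IZUMO1 (ENSG00000182264) on chromosome 19 from 49244109 to 49250166. In GENCODE 29 no annotated gene overlaps MAGEC1, MAGEC2, MAGEA1 or IZUMO1. The end of YBX2 shares 6 bases with SLC2A4 on the other strand, and the long span of MAGED1 holds a processed pseudogene and a U6 RNA copy.

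MAGEC1 and MAGEC2 are printed here because both were higher after depletion and because their upstream sequences resemble each other, and YBX2 and IZUMO1 are shown as the members that were lower. Each line gives the 250 bases before an annotated start from RefSeq (GRCh38.p14), 5′ to 3′ on the gene's strand. Capitals in the MAGEC lines mark CCGGATGT, a sequence with the GGAT core that Ets factors accept, and GCCATCTTG, a YY1 motif. Capitals in the YBX2 line mark the E-box CACGTG and the CCAAT box or its reverse complement ATTGG. Those in the IZUMO1 line mark the cAMP response element TGACGTCA and the CCAAT box. The windows are at chrX:141903644-141903893 (plus strand) for MAGEC1, chrX:142205291-142205540 (minus) for MAGEC2, chr17:7294640-7294889 (minus) for YBX2 and chr19:48746910-48747159 (minus) for the upstream start of IZUMO1.
MAGEC1: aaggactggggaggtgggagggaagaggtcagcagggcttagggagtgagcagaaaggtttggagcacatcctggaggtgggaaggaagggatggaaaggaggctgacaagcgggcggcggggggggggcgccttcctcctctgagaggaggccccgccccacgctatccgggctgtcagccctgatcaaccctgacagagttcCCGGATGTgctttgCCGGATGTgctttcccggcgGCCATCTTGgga
MAGEC2: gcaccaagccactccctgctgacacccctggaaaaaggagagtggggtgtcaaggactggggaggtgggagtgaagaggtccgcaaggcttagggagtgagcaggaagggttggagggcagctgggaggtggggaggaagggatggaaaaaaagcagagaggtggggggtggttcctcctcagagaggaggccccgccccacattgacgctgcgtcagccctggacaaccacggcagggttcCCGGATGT
YBX2: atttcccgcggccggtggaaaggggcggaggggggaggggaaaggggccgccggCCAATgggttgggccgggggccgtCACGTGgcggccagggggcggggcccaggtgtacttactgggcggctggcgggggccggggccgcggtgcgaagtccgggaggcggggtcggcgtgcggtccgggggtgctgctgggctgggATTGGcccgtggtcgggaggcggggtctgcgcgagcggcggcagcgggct
IZUMO1: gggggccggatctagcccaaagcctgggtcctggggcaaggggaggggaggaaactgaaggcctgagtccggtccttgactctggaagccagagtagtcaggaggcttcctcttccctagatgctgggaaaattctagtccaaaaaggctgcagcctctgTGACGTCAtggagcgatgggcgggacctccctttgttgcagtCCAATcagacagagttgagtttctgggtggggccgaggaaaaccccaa

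The upstream sequences of MAGEC1 and MAGEC2 aligned over 213 columns with 168 identical bases (78.9%). Other pairs of members gave local alignments of at most 31 columns. The Ets-like motif begins 46 and 32 bases before the start of MAGEC1 and 8 bases before that of MAGEC2. The YY1 motif begins 12 bases before the start of MAGEC1, and at base 13 of the MAGEC2 transcript, beyond the printed window. Searched on both strands of windows that run from 250 bases before to 50 bases after a start, CCGGATGT was found in 0.701% and GCCATCTTG in 1.42% of 35116 RefSeq windows. TGACGTCA was found in 1.85%, CACGTG in 7.26% and CCAAT in 34.6%. A further CCAAT match begins at base 4 of the YBX2 transcript, beyond the printed window. Also searched were CCGGAAGT (Ets, GGAA form, 4.14%), GCGGGAA (E2F, 6.55%) and TATAAA (11.5%). They matched at base 4 of the upstream MAGED1 transcript, 248 bases before the start of YBX2 and at base 9 of the IZUMO1 transcript, in that order. These motifs were chosen with the sequences in view, and a match describes letters, not a bound site. Windows were found for 5 of the 6 members, those other than MAGEA1.

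The CpG content of these windows differed widely between members. YBX2 had 31 CpG dinucleotides in its 250 bases, more than 89.1% of RefSeq windows had, with 78.4% G and C. MAGEC1 had 11, the median over all windows, while MAGEC2 had 6 and the upstream start of IZUMO1 had 6. MAGED1 had 6 at its upstream start and 17 at its downstream start. YBX2 and IZUMO1 were lower after depletion, while MAGEC2 and MAGED1, with the same count as IZUMO1 at their only or upstream start, were higher. Whether CpG content bears on the differences was not tested. Methylation was not analysed here.

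OGT transcript was lower in both libraries labelled as OGT depletion, at 9124 and 12185 normalized counts against 16012 and 19190 in WT. A normalized count is a read count divided by its library's size factor. The libraries held 17643474 to 19883586 counted reads, and the listed genes took 3.97% to 4.26% of them. Of the genes tested by the authors 1.89% were called higher and 1.35% lower. The members were chosen because they were called in this contrast, so their differences are given as descriptions with no test. Of the members 4 were higher and 2 lower, and nothing about the members is read from these shares. In bulk RNA, a change in the number of cells that express a gene and a change in RNA per cell cannot be told apart.

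All 4 MAGE members were higher after OGT depletion. MAGEC1, a large cancer-testis antigen with a repeat-rich amino-terminal part, was the least abundant, with 26.3 and 30.9 normalized counts in WT and 105 and 130.4 after depletion. Its lower depleted library stood at 3.40 times the higher WT library. The fitted log2 fold change was 2.04 ± 0.23 (SE, n = 2 per group), the 4th highest of the 426 listed genes. Each SE, here and below, comes from a fit to genes chosen as changed, so it may be too small. It rests on few WT reads: 25 and 30, with exact 95% Poisson intervals of 16.2 to 36.9 and 20.2 to 42.8 that cover counting error only. In the authors' deposited table its log2 fold change is 1.06, a shrunken estimate, with an adjusted p of 8.21e-05. On the log2(FPKM + 1) scale the difference was 0.87, since the pseudocount exceeds its WT level.

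MAGEC2, which partners the ubiquitin ligase TRIM28, had 343 and 305 normalized counts in WT and 899.9 and 778 after depletion. Both groups stood far apart, with the lower depleted library at 2.27 times the higher WT library. Its mean was 2.59-fold that of WT, or 1.37 ± 0.14 on the log2 scale (SE, n = 2 per group). In the authors' deposited table it had the smallest adjusted p of the members, 2.41e-10, the 10th smallest of all listed genes.

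MAGEA1, a MAGE-A family antigen recognised by cytotoxic T cells on melanoma, had 189.5 and 172 normalized counts in WT and 509 and 445 after depletion. Again the groups did not overlap. The mean was 2.64-fold that of WT, and the fitted difference was 1.40 ± 0.16 on the log2 scale (SE, n = 2 per group). MAGED1, an adaptor with roles in neurotrophin receptor signalling and apoptosis, had 361 and 287 normalized counts in WT and 826 and 671 after depletion. It showed the widest spread between WT replicates of the members, and its groups were still separate. Its mean was 2.31-fold that of WT, or 1.21 ± 0.16 on the log2 scale (SE, n = 2 per group). The deposited adjusted p-values in the authors' deposited table are 6.32e-08 for MAGEA1 and 1.21e-06 for MAGED1.

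The members outside the MAGE family were lower. YBX2 had 384 and 418 normalized counts in WT and 210.3 and 225 after depletion, so that the higher depleted library was at 58.6% of the lower WT library. Its depleted mean was 54.3% of the WT mean, which is -0.88 ± 0.15 on the log2 scale (SE, n = 2 per group). IZUMO1 had 143 and 150.4 normalized counts in WT and 70.1 and 67.1 after depletion. Both pairs of replicates lay close together, and the higher depleted library was at 49.0% of the lower WT library. The depleted libraries held only 74 and 70 IZUMO1 reads. Their exact 95% Poisson intervals were 58.1 to 92.9 and 54.6 to 88.4, so the closeness of the replicates is no measure of precision. The depleted mean of IZUMO1 was 46.7% of the WT mean. The fitted difference was -1.10 ± 0.18 on the log2 scale (SE, n = 2 per group), the 8th lowest fitted value of the listed genes. The deposited, shrunken log2 fold changes are close to each other, at -0.69 for IZUMO1 and -0.70 for YBX2. In the authors' deposited table the adjusted p is 0.00315 for YBX2 and 0.0250 for IZUMO1; the latter is the highest among the members, below the threshold of 0.05, and no gene beyond that threshold was analysed here. The groups did not overlap in any member, and nor did they in any of the 426 listed genes (100%).

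**Figure D1:**
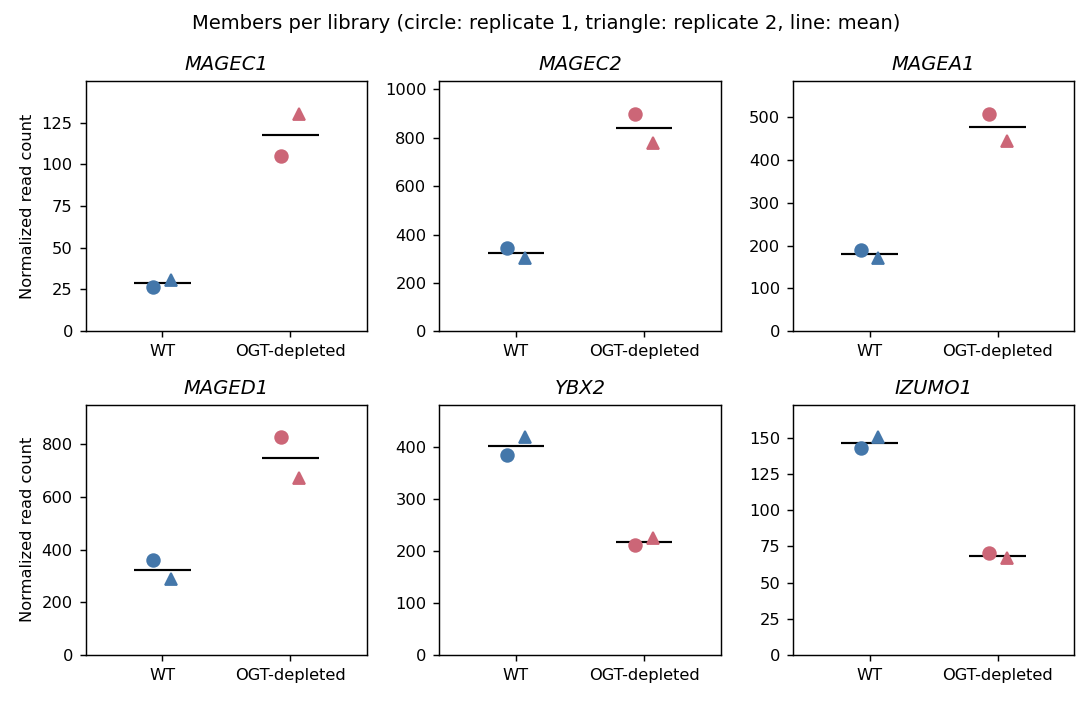
Normalized read counts (vertical axes, each starting at 0) of the 6 members in the WT and OGT-depleted libraries, with circles for replicate 1, triangles for replicate 2 and lines for the means. MAGEC1, MAGEC2, MAGEA1 and MAGED1 are higher in both depleted libraries, and YBX2 and IZUMO1 are lower in both.

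Size factors taken from the listed genes alone, which are genes chosen as changed, moved the median log2 fold change of all listed genes by -0.21 (TMM) and -0.49 (DESeq2). With the latter, log2 fold changes were 1.56 for MAGEC1, 0.88 for MAGEC2, 0.91 for MAGEA1, 0.72 for MAGED1, -1.37 for YBX2 and -1.59 for IZUMO1, so every member kept its direction.

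**Figure D2:**
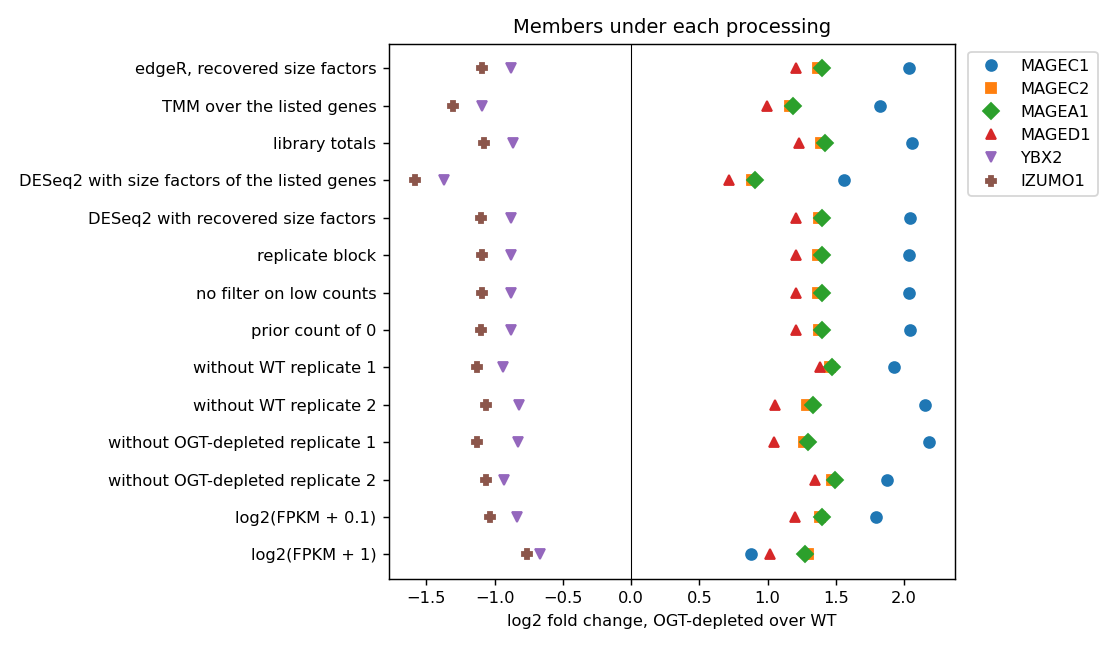
Log2 fold change of each member, OGT-depleted over WT (horizontal axis), under each processing (vertical axis), with edgeR on the recovered size factors at the top. The MAGE members stay to the right of 0 and YBX2 and IZUMO1 to the left under each of the 13 alternatives.

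Per length, MAGEC2 was the most abundant member in both groups. In WT the FPKM levels were 8.96 and 8.43 for MAGEC2, 5.77 and 5.54 for MAGEA1, 4.39 and 5.05 for YBX2, 3.36 and 3.73 for IZUMO1, 3.47 and 2.92 for MAGED1 and 0.321 and 0.398 for MAGEC1. IZUMO1 and MAGED1 overlapped in this order, while the other neighbours did not. After depletion the levels were 24.0 and 21.6 for MAGEC2, 15.8 and 14.4 for MAGEA1 and 8.09 and 6.85 for MAGED1, followed by YBX2 at 2.45 and 2.74. IZUMO1, at 1.68 and 1.67, then overlapped with MAGEC1 at 1.31 and 1.69. MAGED1 thus stood below YBX2 and IZUMO1 in mean level in WT and above both after depletion.

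MAGEC2 and MAGEA1, both on the long arm of X, kept a nearly fixed proportion of reads. Of the reads of both genes MAGEC2 took 64.4% and 63.9% in WT and 63.9% and 63.6% after depletion. Exact 95% binomial intervals ran from 59.4% to 68.6% over the WT libraries and from 60.9% to 66.3% over the depleted ones, and all 4 overlapped. Such a share does not depend on the size factors. Across libraries MAGEA1 was the listed gene nearest to MAGEC2 in pattern, and MAGEC2 the nearest to MAGEA1, at a distance of 0.0352. Distances are Euclidean, over the 4 libraries, between log2(normalized count + 0.5) values centred on each gene's mean. They take in the difference between the groups, by which the genes were chosen, so genes of like fold change lie near each other. MAGEC1, also on the long arm of X, was only the 186th nearest listed gene to MAGEC2.

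The share of MAGEC1 beside its neighbour MAGEC2 varied more between libraries. Both depleted shares were above both WT shares, and the 95% intervals overlapped in 3 of 4 pairs of a WT and a depleted library. Overlap of intervals is not a test of a difference, and none was run. MAGEC1 took 7.12% and 9.20% of the reads of both genes in WT and 10.5% and 14.3% after depletion. For the first depleted library the interval (8.68% to 12.5%) overlapped those of both WT libraries (4.66% to 10.3% and 6.30% to 12.9%). That of the other depleted library (12.2% to 16.7%) lay above the interval of WT replicate 1 and overlapped that of replicate 2. MAGED1 took 65.6% and 62.6% of the reads of MAGED1 and MAGEA1 in WT and 61.9% and 60.1% after depletion, and YBX2 took 72.9% and 73.6% of the reads of YBX2 and IZUMO1 in WT and 75.0% and 77.0% after depletion. In both of these pairs the intervals of the groups overlapped.

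**Figure D3:**
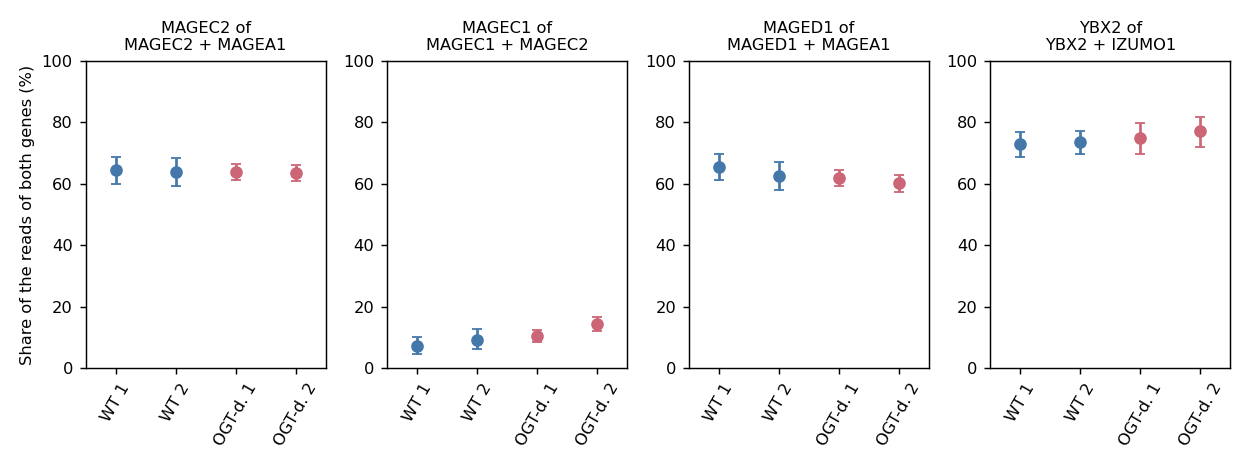
Share of the reads of a pair of members taken by the gene named first (vertical axis, %), per library, with exact 95% binomial intervals that cover counting error only. The MAGEC2 share stays between 63.6% and 64.4%, while the MAGEC1 share goes from 7.12% and 9.20% in WT to 10.5% and 14.3% after depletion (OGT-d.).

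Replicates of a group also differed, in directions that were not the same for all members but for most members were the same in both groups. Replicate 2 stood at 0.888 of replicate 1 in WT and 0.865 after depletion for MAGEC2, at 0.907 and 0.874 for MAGEA1 and at 0.796 and 0.812 for MAGED1. For MAGEC1 the same ratios were 1.17 and 1.24, and for YBX2 they were 1.09 and 1.07. IZUMO1 had 1.05 and 0.957. Each of these was smaller than the difference between the groups, and over all listed genes the median ratio was 1.00 in WT and 0.997 after depletion.

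Few exact stretches of the members' transcripts also occurred in other genes. Stretches alike but for mismatches were not counted, and the reads themselves were not examined. Of the distinct 50-base stretches in the GENCODE 29 transcripts of each member, 0.0515% (MAGEC2) to 0.849% (MAGED1) also occurred in transcripts of another gene. For MAGEA1 the share was 0.662%, with MAGEA4 as the gene concerned, and for MAGEC1 it was 0.383%, most of it with MAGEC3. The read length and the treatment of reads with several matches are not stated in the labels.

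The genes with library patterns nearest to MAGEC1 were TMPRSS15, which encodes enteropeptidase, CADPS2, a gene of dense-core vesicle release, and TFPI2, a Kunitz-type protease inhibitor. Their distances over the 4 libraries were 0.206, 0.305 and 0.416, and their log2 fold changes were 1.86, 1.83 and 1.82. MAGEC2, by contrast, was the 33rd nearest gene to MAGEC1, at 0.796. The nearest to YBX2 were the noradrenaline transporter SLC6A2 (0.0617), the phosphodiesterase PDE1B (0.0817) and the kinase gene MYLK4 (0.0916). The nearest to IZUMO1 were the leukocyte integrin ITGAL (0.0931), the coronin CORO6 (0.174) and the channel subunit UNC80 (0.182). YBX2 and IZUMO1 were 0.244 apart.

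**Figure D4:**
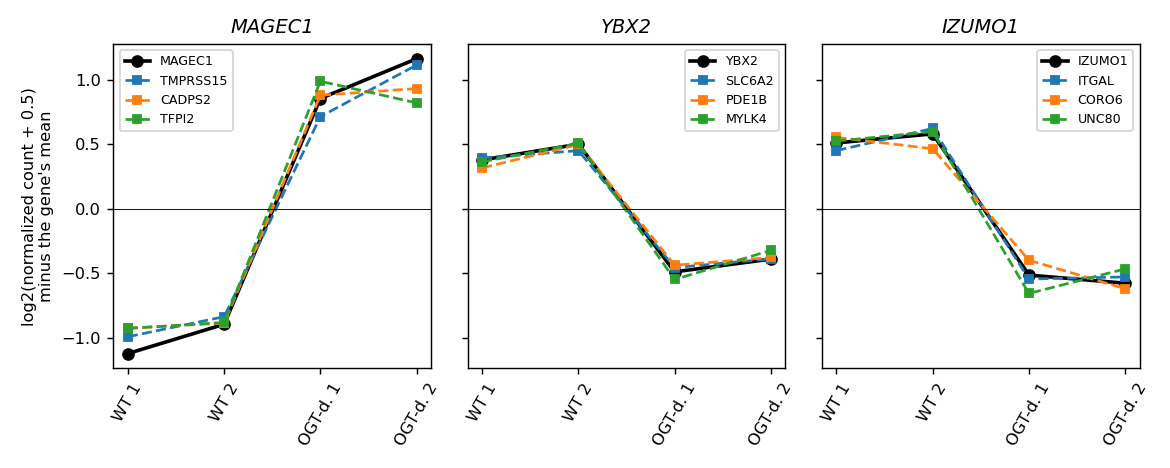
Values of log2(normalized count + 0.5) minus each gene's mean (vertical axis) in the 4 libraries, for MAGEC1, YBX2 and IZUMO1 (black) and the 3 protein-coding listed genes nearest to each (dashed); lines only join the values of a gene. The nearest genes of YBX2 lie at distances of 0.0617 to 0.0916, and those of MAGEC1 at 0.206 to 0.416.

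Other germline-related genes went in both directions. In 6 lists of germline-related genes, 262 genes in all, 12 (4.58%) were in the authors' table, 7 of them higher and 5 lower, against 3.24% of all tested genes. How many of the 262 had been tested is unknown, and nothing particular to germline genes is read from these counts. Of 66 other cancer-testis genes, 3 were higher and 1 lower. SAGE1, an X-linked sarcoma antigen, had 125 and 110.2 normalized counts in WT and 215 and 234 after depletion (log2 fold change 0.93 ± 0.17, SE). TPTE, a gene expressed in testis, had 282 and 238 in WT and 499 and 501 after depletion (0.94 ± 0.15), and VCX, an X-linked testis gene, had 24.2 and 18.5 in WT and 63.5 and 69.0 after depletion (1.63 ± 0.24). PRAME, an abundant cancer-testis antigen that is not X-linked, was lower, at 1943 and 1768 in WT and 1310.1 and 1235 after depletion (-0.54 ± 0.12).

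Of 88 genes in the meiotic and germ-cell list, 3 (3.41%) were in the table, close to the 3.24% of all tested genes, and all 3 were lower. SYCP2, a component of the synaptonemal complex, had 389 and 347 normalized counts in WT and 170.5 and 202 after depletion. TEX15, needed for meiotic recombination, had 904 and 1001 in WT and 548 and 686 after depletion, and CCNA1, the germline cyclin A, had 665 and 621 against 410.2 and 357. Their log2 fold changes were -0.98 ± 0.16, -0.63 ± 0.14 and -0.75 ± 0.14 (SE). Of 35 genes of sperm-egg adhesion and fusion, where IZUMO1 acts, 0 were listed.

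Of the Y-box and germline RNA-binding list of 22 genes, 2 were listed and both were higher. Of all tested genes 3.24% were listed. How many genes of this list and of the lists below had been tested is unknown, and nothing about the lists is read from their counts. YBX1, the broadly expressed relative of YBX2, had 27580 and 23523 normalized counts in WT and 37796 and 33227 after depletion, a log2 fold change of 0.47 ± 0.14 (SE), opposite to that of YBX2. IGF2BP3, an oncofetal RNA-binding protein, had 192 and 240.0 in WT and 369 and 571 after depletion. Of 25 partners or relatives of MAGE proteins 2 were listed and higher, NDN, whose product necdin carries a MAGE homology domain, at 80.0 and 64.9 in WT and 212 and 171 after depletion, and BEX1, at 90.6 and 62.8 against 246 and 152. Of 36 repressors of germline genes 1 was listed: DNMT3B, a de novo DNA methyltransferase, was lower, at 1923 and 2270 in WT and 1296 and 1554 after depletion. Its log2 fold change was -0.56 ± 0.13 (SE), and whether it bears on the members was not tested.

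The MAGE members lie on a chromosome where most listed genes were higher. Outside pseudoautosomal region 1 (PAR1), which X and Y share, 12 of the 16 other X-linked listed genes were higher and 4, OGT among them, lower, with a median log2 fold change of 0.85. All 9 listed genes of PAR1 were higher, with a median of 1.00, but their reads cannot be assigned to X rather than Y. Listed genes on the rest of Y were not summarised here. The 4 MAGE members had a median of 1.39, and all 426 listed genes had 0.56, with 248 higher and 178 lower. The MAGE members were chosen from the same contrast, so nothing particular to them is read from these medians.

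**Figure D5:**
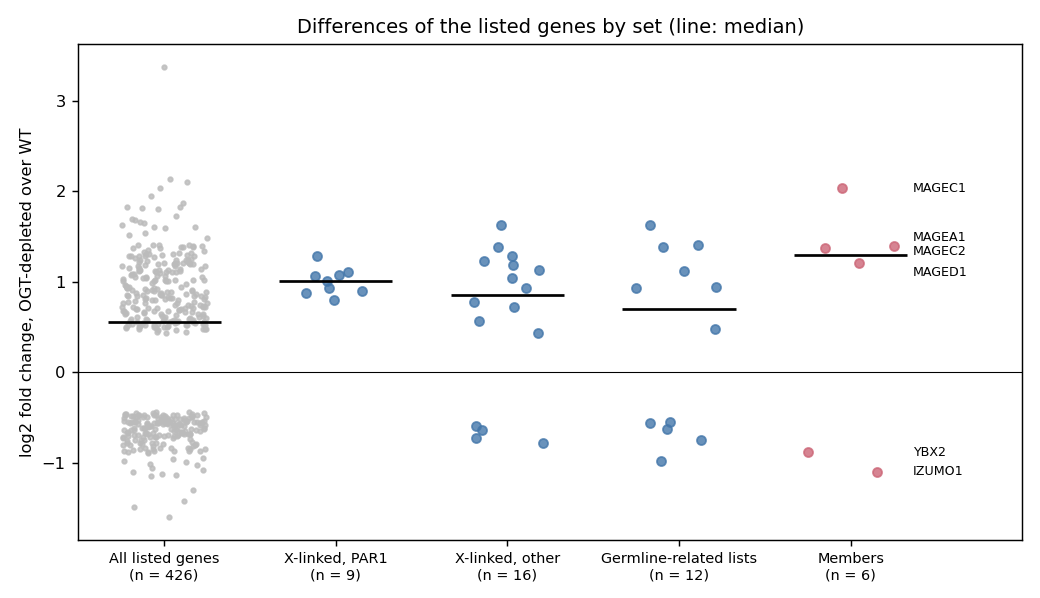
Log2 fold change, OGT-depleted over WT (vertical axis), of each listed gene by set, with lines for medians; SAGE1, VCX and BEX1 appear both among the X-linked genes and in the germline-related lists. The gap around 0 in the leftmost set is there because the table holds called genes only; the median is 0.56 for all 426 listed genes and 1.00 for the 9 genes of PAR1.

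Of the 6 other listed genes within 1 Mb of a member, 5 shared its direction. Over all 426 listed genes 248 were higher and 178 lower. Neighbours outside the authors' table were not analysed here, so nothing about neighbourhoods is read from this count. LDOC1, 720 kb from MAGEC1, had a log2 fold change of 1.29 ± 0.20 (SE). SLC6A8, the creatine transporter gene 467 kb from MAGEA1, had 0.78 ± 0.11, while SRPK3, 556 kb from MAGEA1, went the other way with -0.78 ± 0.17. Near YBX2 both ACAP1, 41.9 kb away, and NLGN2, 110.3 kb away, were lower, at 68.6% and 66.8% of WT. GRIN2D, 296 kb from IZUMO1, was at 64.0% of WT. No other listed gene lay within 1 Mb of MAGED1.

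Markers of blood cell types in the table moved in both directions beside the members. Of all tested genes 3.24% were listed. How many of the markers had been tested is unknown, and nothing about cell types is read from the counts of listed markers. Of 14 megakaryocyte markers 2 were listed, 1 higher (TUBB1, log2 fold change 1.19) and 1 lower (F2R, -0.52). Their summed normalized counts, most of them from F2R, were 2546 to 2626 in WT and 2008 to 2026 after depletion; the levels of the rest were not analysed here, so the labelled cell type could be checked no further. Of 10 erythroid markers 3 were listed, HBE1 and CA2 higher (1.73 and 0.64) and KEL lower (-0.55), with sums of 3380 to 3721 in WT and 5244 to 6143 after depletion. Of 8 mast cell markers 5 were listed, 4 higher and 1, FCER1A, lower (-0.72). The median log2 fold change of these 5 was 1.27, while their sums, to which FCER1A gave the most in WT, overlapped at 6344 to 7619 in WT and 7573 to 8628 after depletion. Of 5 monocyte markers 1 was listed and lower (4297 to 4628 in WT and 3141 to 3425 after depletion), and of 6 lymphoid markers 1 was listed and higher (22.1 to 29.9 and 97.8 to 132). Of 10 germ-cell markers, DDX4 and DAZL among them, 0 were listed. The part of these shifts in the differences of the members was not tested.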

How the data were processed

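The sample titles put the 4 RNA libraries of MEG-01 cells into groups of 2, WT and OGT-depleted. The submitters' processing notes name CASAVA 1.8, STAR 2.5, TopHat, DESeq2 and hg19 but give no roles. No source used here states the read counter, annotation or strand setting, so reads of overlapping genes cannot be told apart. The authors deposited raw read counts and FPKM values per library for the genes they called. They also deposited group means, a normalized signal, and log2 fold changes, p-values and adjusted p-values. The treated columns are headed OGTi and were matched to the titles by number. Averaging those columns, each over its size factor, gives the deposited CR_OGT mean. The meaning of OGTi is not stated in the labels; the columns are taken here as the CRISPR libraries.

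Size factors (0.950 and 0.971 in WT, 1.06 and 1.04 after depletion) were solved from the deposited group means, and library totals from counts, lengths and FPKM. The number of tested genes came from deposited adjusted p-values, ranks and p-values. edgeR 4.0.16 (glmQLFit, glmQLFTest) in R 4.3.3 was fitted to the counts of all 426 listed genes, all of which passed filterByExpr. Each SE was obtained by dividing the fold change (log2, sign dropped) by the root of F. The fit was tested on simulated data. Alternatives were other scalings, DESeq2 1.42.0, a replicate block, no filter, other pseudocounts and leaving out each library in turn. Local alignments (Biopython 1.88) scored 2 for a match, -3 for a mismatch, -5 to open a gap and -2 to extend it. Motifs were counted by letters.

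The members and gene lists were chosen with earlier results of these data known. Genes named were the members, OGT, the 3 protein-coding listed genes nearest in pattern to each of MAGEC1, YBX2 and IZUMO1, listed members of the 6 germline-related lists, and listed genes within 1 Mb of a member. Also named were some markers of blood and germ cell types and some genes that overlap a member or share sequence with it.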

Additional observations from a re-analysis of the deposited data

How the results depend on the processing

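All 78 log2 fold changes, of the 6 members under 13 alternatives, kept their direction, as did the counts of 4 higher and 2 lower members. The members were chosen as changed in these same libraries, where their groups did not overlap. A kept direction is therefore not independent support. Of the 78 values, 61 moved by less than 1 SD between replicates. With TMM over the listed genes the log2 fold changes were 1.82 for MAGEC1, 1.16 for MAGEC2, 1.19 for MAGEA1, -1.09 for YBX2 and -1.31 for IZUMO1. With DESeq2 size factors of the listed genes they were 1.56, 0.88, 0.91, -1.37 and -1.59 in the same order and 0.72 for MAGED1. As log2(FPKM + 0.1) the difference was 1.79 for MAGEC1 and -1.03 for IZUMO1, and as log2(FPKM + 1) it was 0.87 for MAGEC1, 1.27 for MAGEA1, -0.67 for YBX2 and -0.76 for IZUMO1, since a pseudocount shrinks the difference of low genes. Leaving out each library in turn gave 1.87 to 2.18 for MAGEC1, 1.26 to 1.47 for MAGEC2, 1.30 to 1.49 for MAGEA1, 1.05 to 1.38 for MAGED1, -0.94 to -0.82 for YBX2 and -1.13 to -1.06 for IZUMO1; the lone library of a group is then assumed to vary like the others. With the replicate number as a block the log2 fold changes were 2.04 for MAGEC1 and -1.10 for IZUMO1. The libraries share only a number, whose deviations correlated across genes (r = 0.50, genes are not independent replicates). Depth limits MAGEC1 most, with 25 and 30 reads in WT. The SE also depended on the fit. DESeq2 on the recovered size factors gave a larger SE than edgeR for every member. For MAGEC1 it was 0.37 against 0.23, and for IZUMO1 0.29 against 0.18. With the replicate block the SE was smaller, at 0.13 for MAGEC1 and 0.12 for IZUMO1. All these fits used the listed genes only.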
